A study of Mus musculus with 16 samples.

Results

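The genes described here are 10 that restrain the growth kinase complex mTORC1 or carry the leucine signal to it: Sesn1, Sesn2, Sesn3, Ddit4, Eif4ebp1, Deptor, Rragd, Tfeb, Depdc5 and Mtor. They were chosen by symbol, and all 10 were found among the 22322 gene identifiers of the deposited tables for liver and white adipose tissue. The mice were DIO (diet-induced obese), and the library names carry the codes HFD for vehicle and H100 for the drug. Halofuginone, an inhibitor of prolyl-tRNA synthetase, was given intraperitoneally at 100 μg/kg with an injection interval of 2 days over 8 weeks. The liver groups had 5 libraries each and the groups of white adipose tissue 3 each. The labels used here give no strain, sex, age, fat depot or feeding state at collection, and do not say whether a liver and a fat library with the same number came from 1 animal. They also do not state that each library is a separate animal, so p-values measure the spread between libraries, which may be technical.

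mTORC1 sits on the lysosome, where it promotes protein synthesis when amino acids and growth factors are plentiful. Leucine reaches it through the sestrins, which hold back the GATOR2 complex when leucine is low. GATOR2 in turn opposes GATOR1, which switches off the Rag GTPases that bring mTORC1 to the lysosome. Sesn2, Ddit4 and Eif4ebp1 are known targets of ATF4, the transcription factor of the amino acid starvation response, so the set holds both parts of the sensor and genes that stress can induce.

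Promoter sequence is shown for the pair of genes called in liver, Sesn2 and Ddit4, and for Sesn3, whose fat groups lay far apart. Each line holds the 250 bases before the RefSeq start in GRCm38.p6, written 5′ to 3′ in the direction of the gene, with capitals for the GC box GGGCGG and the CCAAT box CCAAT on either strand. The Sesn2 window is chr4:132510457-132510706 on the minus strand, the Ddit4 window chr10:59951771-59952020 on the minus strand and the Sesn3 window chr9:14276051-14276300 on the plus strand.
Sesn2: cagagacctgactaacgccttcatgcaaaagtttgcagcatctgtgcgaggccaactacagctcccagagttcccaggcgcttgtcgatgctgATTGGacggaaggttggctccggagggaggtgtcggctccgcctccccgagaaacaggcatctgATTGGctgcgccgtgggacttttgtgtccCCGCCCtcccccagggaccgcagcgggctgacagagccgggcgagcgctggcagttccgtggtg
Ddit4: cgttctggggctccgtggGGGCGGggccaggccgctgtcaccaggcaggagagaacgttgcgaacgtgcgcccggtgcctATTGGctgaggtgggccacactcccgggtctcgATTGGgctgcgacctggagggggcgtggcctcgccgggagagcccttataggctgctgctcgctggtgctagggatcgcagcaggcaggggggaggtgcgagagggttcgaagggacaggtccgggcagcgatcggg
Sesn3: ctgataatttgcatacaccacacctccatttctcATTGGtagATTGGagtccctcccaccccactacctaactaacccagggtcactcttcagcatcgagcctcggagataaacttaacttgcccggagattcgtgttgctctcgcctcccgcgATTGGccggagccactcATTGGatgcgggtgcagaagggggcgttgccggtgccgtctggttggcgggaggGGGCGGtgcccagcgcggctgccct
The Sesn2 window held 1 GC box, which began 64 bases before the start, and 2 CCAAT boxes, 157 and 93 bases before it. The Ddit4 window held 1 GC box at 232 bases and 2 CCAAT boxes at 170 and 137 bases, and the Sesn3 window held 1 GC box at 25 bases and 4 CCAAT boxes at 216, 208, 96 and 79 bases. Of 32851 RefSeq windows of this length, 32.7% held a GC box and 33.9% a CCAAT box. The composite element of ATF4 and C/EBP, TGATGNAA, and the CLEAR core CACGTG to which TFEB binds were searched on both strands too and occurred in 3.45% and 6.02% of all windows. Neither was found in the 11 windows held for 8 of the 10 genes, which says only that these letters are not in these windows. The letters of the GC box, the CCAAT box, TGATGNAA and CACGTG do not contain one another.

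Liver libraries held 20309956 to 31980683 counts and fat libraries 17070614 to 21387799. Halofuginone liver 1 lay near the vehicle libraries on the first principal component, at -23.3 against -36.0 to -28.3 in vehicle and 32.4 to 58.0 in the other halofuginone livers. Values in CPM are counts scaled to a common library size with TMM factors, which were found within each tissue separately. CPM values of liver and of fat therefore do not share a scale and are not for comparison between the tissues. The summed CPM of 7 hepatocyte markers was 121207 to 133053 in vehicle liver and 40785 to 114305 in treated liver. Halofuginone liver 1 was the highest of the treated, and the part of this marker difference in the liver results was not tested. Fat vehicle 3 had the highest sum of 9 macrophage markers, 4824 CPM, the lowest sum of 8 adipocyte markers, 19875 CPM, and 76.2 CPM of 6 epididymis markers against 0.540 to 12.3 in the other fat libraries. Muscle markers summed to at most 0.309 CPM in liver. In bulk tissue, fewer cells of a type and less RNA per cell cannot be told apart.

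In liver, 2 of the 10 genes were called under halofuginone, and both rose: Sesn2, a leucine-binding sestrin that stress induces, by 3.50-fold, and Ddit4, whose product REDD1 restrains mTORC1 through the TSC complex, by 4.53-fold. Called means a Benjamini-Hochberg adjusted p under 0.05 in edgeR's quasi-likelihood test over 12311 genes, of which 23.2% were called, 12.7% as higher and 10.5% as lower. The other 8 were not called, with log2 fold changes of halofuginone over vehicle between -0.38 and 0.33. The median over the 10 genes was -0.00018 on the log2 scale, beside 0.02 over all genes tested. In fat none of the 10 was called, and none of the 14030 genes tested was, a share of 0%.

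**Figure D1:**
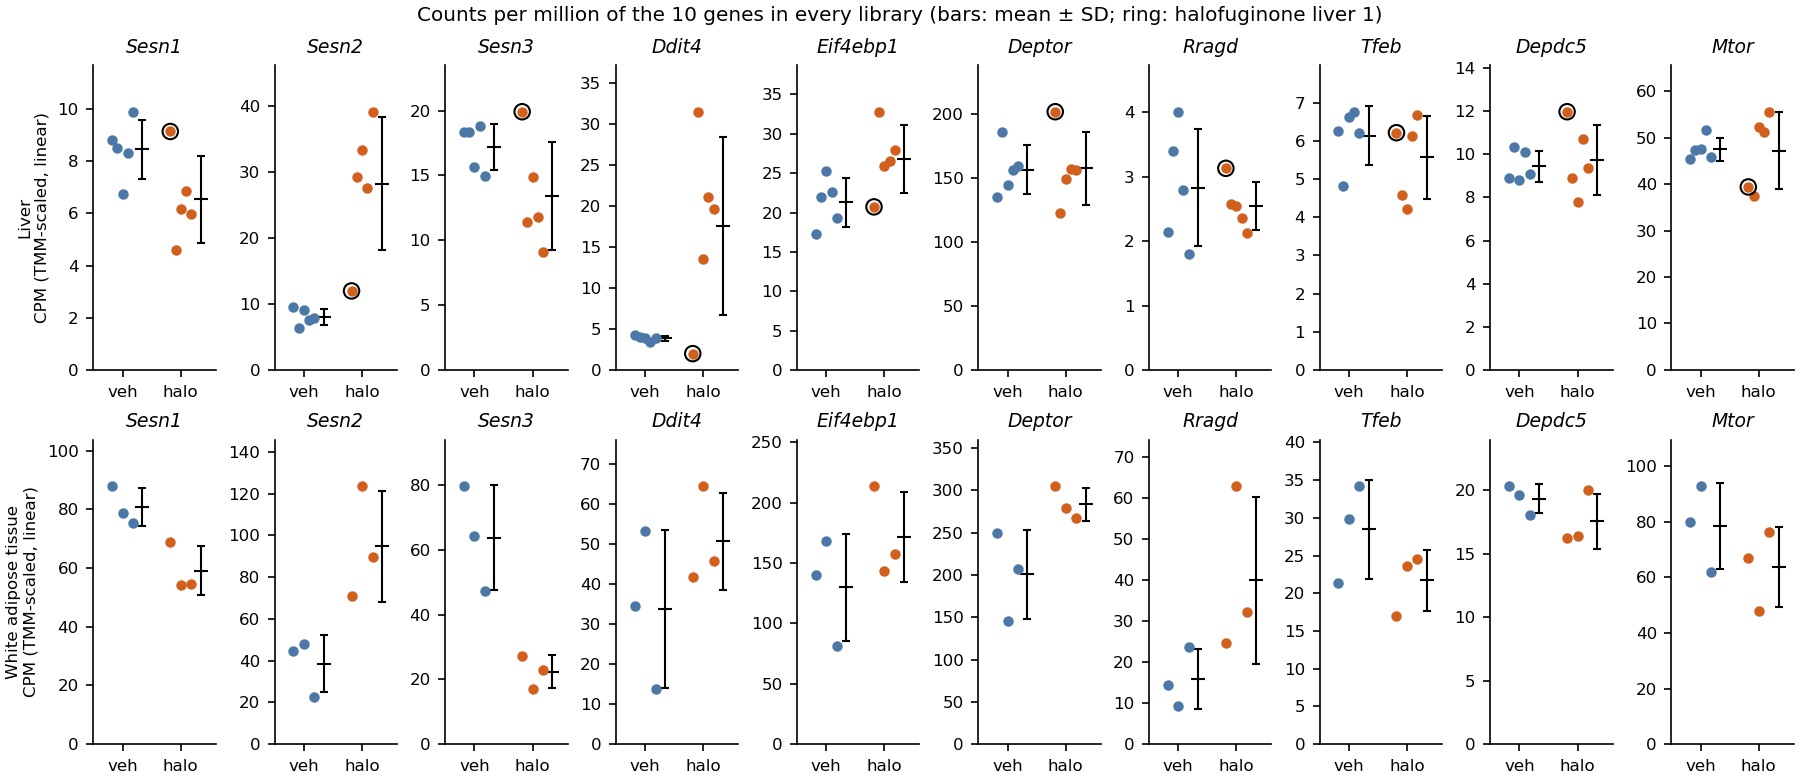
CPM (TMM-scaled, linear axis from 0) of the 10 genes in every liver library (upper row) and fat library (lower row), with bars at the mean ± SD of each group and a ring around halofuginone liver 1. Sesn2 lies above every vehicle library in all 5 treated livers and all 3 treated fat libraries, and Sesn3 lies below every vehicle library in all 3 treated fat libraries.

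Among the sestrins, Sesn2 (ENSMUSG00000028893) stood at 9.50, 6.41, 9.04, 7.51 and 7.87 CPM in the 5 vehicle livers. In the halofuginone livers it stood at 11.97, 29.3, 33.3, 27.6 and 39.1 CPM. All 5 treated libraries lay above all 5 vehicle libraries, and the lowest of them was halofuginone liver 1. Groups without overlap were seen for 11.7% of the genes tested in liver, 5.13% with halofuginone higher, and by count Sesn2 was the only one of the 10 in liver. The means were 8.07 CPM ± 1.24 (SD, n = 5) and 28.2 CPM ± 10.1 (SD, n = 5). The log2 fold change was 1.81 (SE 0.26, 95% interval 1.24 to 2.38), with an adjusted p of 0.00326 from edgeR.

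Sesn1, a sestrin that also binds leucine, was 8.83, 8.51, 6.76, 8.33 and 9.90 CPM in vehicle liver and 9.14, 4.59, 6.15, 6.87 and 5.99 CPM under halofuginone. Sesn3, the related family member that FoxO factors are known to induce, was 18.3, 18.3, 15.7, 18.8 and 14.95 CPM in vehicle and 19.9, 11.4, 14.9, 11.8 and 9.08 CPM under halofuginone. For both genes halofuginone liver 1 was the highest treated library and lay inside or above the vehicle range, while 3 treated livers for Sesn1 and 4 for Sesn3 lay below every vehicle library. The log2 fold changes were -0.38 for Sesn1 (SE 0.17) and -0.36 for Sesn3 (SE 0.18), with edgeR adjusted p-values of 0.129 and 0.167. Without halofuginone liver 1, both were called as lower, Sesn1 at -0.54 (adjusted p 0.0106) and Sesn3 at -0.57 (adjusted p 0.00739, edgeR). The whole comparison then called 42.8% of 12422 genes, 21.2% as higher and 21.6% as lower.

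Sestrin amounts can be set beside each other per transcript length in the deposited FPKM (fragments scaled to transcript length and library depth). Sesn2 made up 32.8% ± 4.70 (SD, n = 5) of the summed sestrin FPKM in vehicle liver, with libraries from 27.1 to 39.5%. Under halofuginone it made up 66.4% ± 15.6 (SD, n = 5), with libraries from 39.1 to 77.9%. The lowest treated library overlapped the vehicle range, and the mean sum of the 3 genes was 6.70 FPKM in vehicle and 12.6 FPKM under halofuginone. In fat the Sesn2 share was 22.9% ± 5.77 in vehicle and 52.99% ± 9.51 under halofuginone (SD, n = 3 each), and the shares did not overlap. The fat sum itself was 46.5 FPKM ± 8.16 in vehicle and 51.9 FPKM ± 4.96 under halofuginone (SD, n = 3 each), and its libraries overlapped. These shares are a description without a test of their own.

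**Figure D2:**
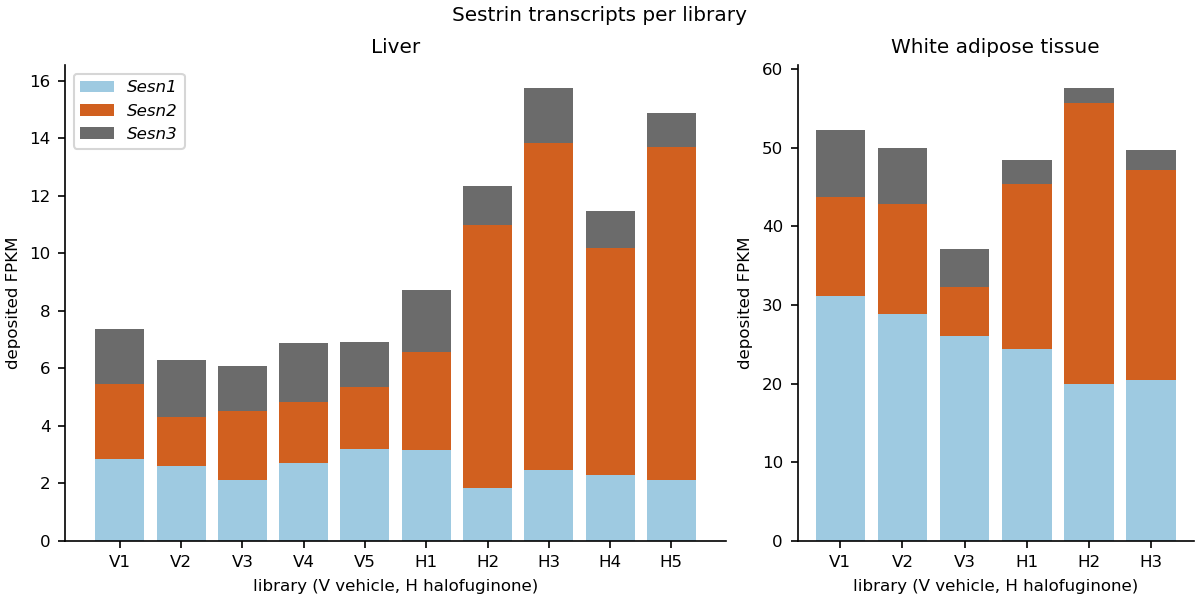
Deposited FPKM of Sesn1, Sesn2 and Sesn3 stacked for every library (V vehicle, H halofuginone), liver on the left and white adipose tissue on the right, on separate linear axes from 0. Under halofuginone the Sesn2 share averages 66.4% in liver against 32.8% in vehicle, and 52.99% in fat against 22.9%, where the stack height overlaps between the groups.

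In fat, Sesn3 (ENSMUSG00000032009) was 79.7, 64.4 and 47.2 CPM in vehicle and 27.3, 17.1 and 22.8 CPM under halofuginone. Sesn2 was 44.6, 47.9 and 22.8 CPM in vehicle and 71.0, 123.7 and 89.5 CPM under halofuginone. Sesn1 was 88.0, 78.9 and 75.3 CPM in vehicle and 68.8, 54.2 and 54.6 CPM under halofuginone. None of the 3 sestrins overlapped between the fat groups, with Sesn2 higher in each treated library and Sesn1 and Sesn3 lower in each. Groups without overlap were seen for 20.6% of the fat genes tested, 10.2% with halofuginone higher and 10.4% with it lower. The log2 fold changes were -1.51 for Sesn3 (SE 0.26, p 0.000689, edgeR adjusted p 0.129), 1.301 for Sesn2 (SE 0.33, p 0.00618, adjusted p 0.210) and -0.45 for Sesn1 (SE 0.16, p 0.0266, adjusted p 0.314). An unadjusted p under 0.05 was reached by 13.4% of fat genes.

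The call in fat depended on the test. DESeq2, which called 723 fat genes (5.15%), called Sesn3 as lower beside 3.48% of genes (log2 fold change -1.51, adjusted p 6.3e-05) and Sesn2 as higher beside 1.67% (1.302, adjusted p 0.0111). A single edgeR fit of all 16 libraries called 334 of 14853 genes for the fat effect and, of the 10 genes, Sesn3 alone (adjusted p 0.0084). That fit used 1 estimate of spread per gene for both tissues. The coefficient of variation common to all genes was 0.337 in fat alone, 0.229 in liver alone and 0.276 in the joint fit. The part of this in the 334 calls was not tested. Macrophage markers moved with the fat groups: the 9 summed to 2851 to 4824 CPM in vehicle and 1528 to 1652 CPM under halofuginone. The Kupffer cell marker Clec4f was at 0 in treated fat, and only 8 of the 9 had enough counts to be tested. The 8 fibroblast markers summed to 4483 to 6446 CPM against 3238 to 3765 CPM, and the 7 skeletal muscle markers to 99.6 to 183.6 CPM against 61.4 to 71.1 CPM. The median log2 fold change was -1.25 over the 8 tested macrophage markers and -0.67 over the 8 fibroblast markers. Over the 6 tested muscle markers it was -0.084, so the fall of the muscle sum was not shared by the middle of that list. The 8 adipocyte markers summed to 19875 to 30638 CPM against 24762 to 30830 CPM, with overlap. The part of these cells in the sestrin values was not tested. Without fat vehicle 3 the log2 fold changes were -1.69 for Sesn3, 1.04 for Sesn2 and -0.49 for Sesn1, and none of the 10 genes was called (edgeR, 0.00702% of 14242 genes called, unadjusted p 0.000347 for Sesn3).

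Of the genes that stress can induce, Ddit4 (ENSMUSG00000020108) was 4.24, 3.96, 3.87, 3.40 and 3.93 CPM in vehicle liver. Under halofuginone it was 1.99, 31.5, 13.5, 21.1 and 19.6 CPM. Halofuginone liver 1 was the lowest of all 10 livers, and the other 4 treated livers lay above every vehicle library. The log2 fold change was 2.18 (SE 0.49, 95% interval 1.10 to 3.26, edgeR adjusted p 0.0142). Without halofuginone liver 1 it was 2.44 (SE 0.21, adjusted p 1.6e-05). In fat, Ddit4 was 34.5, 53.2 and 13.7 CPM in vehicle and 41.7, 64.5 and 45.8 CPM under halofuginone. Those groups overlapped, and the log2 fold change was 0.59 (SE 0.46, 95% interval -0.50 to 1.67, edgeR adjusted p 0.631). It was 0.21 without fat vehicle 3, the library with the lowest Ddit4, and 1.07 without fat vehicle 2, the vehicle library with the highest.

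Eif4ebp1 encodes 4E-BP1, the repressor of cap-dependent translation that mTORC1 phosphorylates. It was 17.3, 21.9, 25.3, 22.6 and 19.3 CPM in vehicle liver and 20.7, 32.8, 25.9, 26.6 and 27.96 CPM under halofuginone. The groups overlapped through halofuginone liver 1, since the other 4 treated livers lay above every vehicle library. The log2 fold change was 0.33 (SE 0.13, edgeR p 0.0293, adjusted p 0.0892), where 39.1% of liver genes had an unadjusted p under 0.05. Without halofuginone liver 1 the gene was called as higher at 0.39 (adjusted p 0.0194). It was also called as higher in liver with counts scaled by library size alone (0.50, adjusted p 0.0290) and in limma on log2(FPKM + 1) (0.45, adjusted p 0.0372). Scaling by library size alone moved the median log2 fold change of all liver genes up by 0.16, and the share of called genes that were higher was 76.9% there and 54.7% with TMM. In fat Eif4ebp1 ran from 81.2 to 168.1 CPM in vehicle and from 143.1 to 213.7 CPM under halofuginone, with a log2 fold change of 0.40 (SE 0.30, adjusted p 0.610). That value was 0.16 without fat vehicle 3, 0.63 without fat vehicle 2 and 0.22 without fat halofuginone 1.

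Deptor encodes an inhibitory subunit that binds the kinase. In liver it ran from 134.9 to 185.7 CPM in vehicle and from 122.4 to 201.5 CPM under halofuginone, with a log2 fold change of 0.01 and a 95% interval of -0.29 to 0.31. In fat it was 249.96, 145.4 and 207.2 CPM in vehicle and 305.2, 278.7 and 267.2 CPM under halofuginone. Every treated fat library lay above every vehicle library, and the log2 fold change was 0.50 (SE 0.22, p 0.0598, edgeR adjusted p 0.394). That value was 0.31 without fat vehicle 2 and 0.69 without fat vehicle 1.

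**Figure D3:**
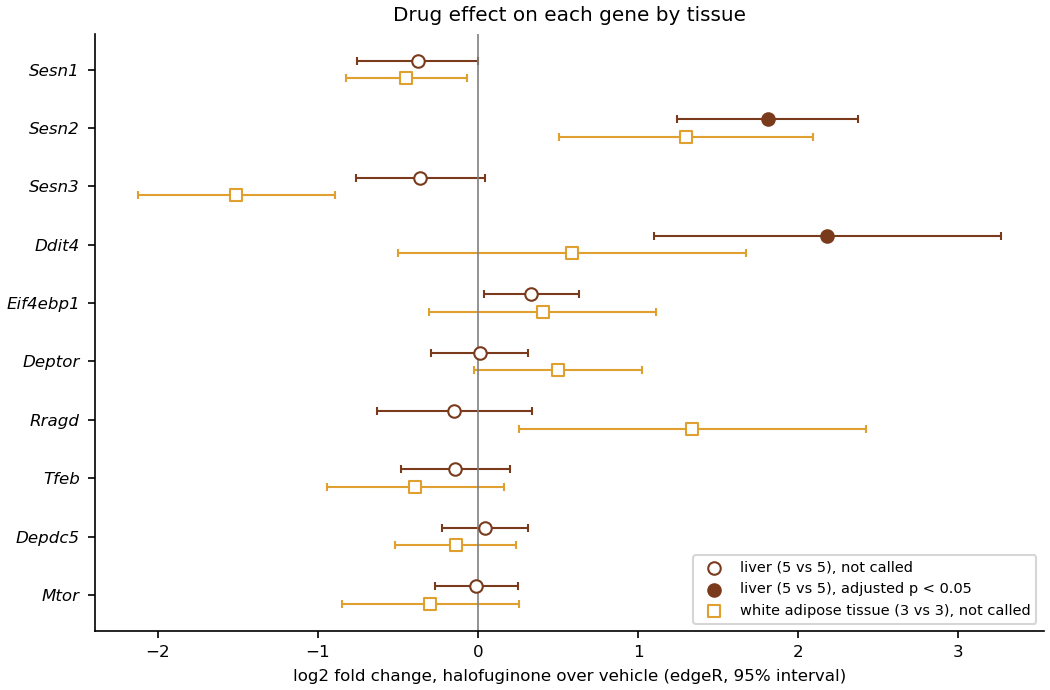
Log2 fold change of halofuginone over vehicle with its 95% interval (edgeR) for each of the 10 genes, circles for liver (5 against 5) and squares for white adipose tissue (3 against 3), filled where the adjusted p is under 0.05. Only Sesn2 (1.81) and Ddit4 (2.18) in liver are filled, and the fat intervals of Sesn3, Sesn2, Rragd and Sesn1 do not include 0.

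Of the arm that acts at the lysosome, Rragd encodes RagD, a Rag GTPase and a known TFEB target. It was the lowest of the 10 in liver, at 1.80 to 4.01 CPM in vehicle and 2.12 to 3.13 CPM under halofuginone, with 54 to 86 counts a library. Its liver log2 fold change was -0.15 (SE 0.22, edgeR adjusted p 0.650), and it turned to 0.01 with library size alone. In fat, Rragd was 14.3, 9.32 and 23.8 CPM in vehicle and 24.6, 63.0 and 32.2 CPM under halofuginone. The fat groups did not overlap, but the highest vehicle and the lowest treated library were close together. The fat log2 fold change was 1.34 (SE 0.46, p 0.0226, edgeR adjusted p 0.301). With a library left out it ranged from 0.88 without fat halofuginone 2 to 1.76 without fat vehicle 3.

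Tfeb encodes the master transcription factor of lysosomal genes, which mTORC1 keeps out of the nucleus. In liver it ran from 4.81 to 6.76 CPM in vehicle and from 4.22 to 6.66 CPM under halofuginone (log2 fold change -0.14, SE 0.16, edgeR adjusted p 0.527). In fat it was 21.3, 29.9 and 34.2 CPM in vehicle and 17.04, 23.6 and 24.5 CPM under halofuginone, and the groups overlapped. The fat log2 fold change was -0.39 (SE 0.23, edgeR adjusted p 0.524). That value was -0.24 without either fat vehicle 3 or fat halofuginone 1, and -0.56 without fat vehicle 1. Mtor, the kinase itself, ran from 45.4 to 51.6 CPM in vehicle liver and from 37.4 to 55.6 CPM in treated liver. Its liver log2 fold change was -0.01 (95% interval -0.27 to 0.25, edgeR adjusted p 0.957). In fat Mtor ran from 62.1 to 92.9 CPM in vehicle and from 47.8 to 76.2 CPM under halofuginone (-0.30, 95% interval -0.85 to 0.25, edgeR adjusted p 0.628). Its fat log2 fold change was -0.16 without fat vehicle 2, -0.095 without fat halofuginone 2 and -0.44 without fat vehicle 3.

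Depdc5, the GATOR1 subunit at the contact with the Rag GTPases, gave different answers by count and by FPKM in liver. Its counts were 8.91, 10.3, 8.81, 10.1 and 9.08 CPM in vehicle and 11.97, 8.91, 7.76, 10.7 and 9.35 CPM under halofuginone. Those groups overlapped, and the log2 fold change was 0.04 (SE 0.12, edgeR adjusted p 0.824). Its FPKM was 1.97, 2.52, 2.24, 3.15 and 2.59 in vehicle and 3.99, 4.11, 4.93, 3.33 and 3.16 under halofuginone. By FPKM every treated liver lay above every vehicle liver, and limma called the gene on log2(FPKM + 1) at 0.49 (adjusted p 0.0179), where 28.7% of 9987 genes were called. The length that count, library total and FPKM together imply was 3.65 kb ± 0.426 in vehicle and 2.69 kb ± 0.562 under halofuginone (SD, n = 5 each). For Depdc5 the libraries ran from 3.19 to 4.29 kb in vehicle and from 1.87 to 3.20 kb under halofuginone, with overlap. For Sesn2 and Ddit4 that length was 3.47 and 1.75 kb in vehicle and 3.48 and 1.76 kb under halofuginone. It varied more for other genes, with an SD of 0.368 kb for Mtor in vehicle and 0.533 kb for Sesn3 under halofuginone (n = 5 each). In fat Depdc5 ran from 18.1 to 20.3 CPM in vehicle and from 16.2 to 20.04 CPM under halofuginone (-0.14, SE 0.16, adjusted p 0.759, and -0.085, -0.058 and -0.23 without fat halofuginone 1, 2 and 3).

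**Figure D4:**
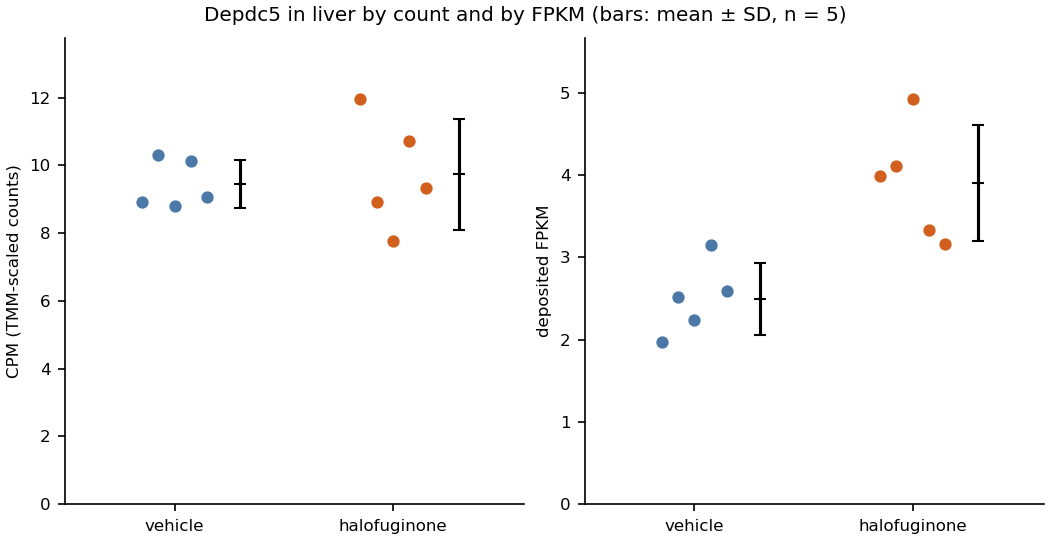
Depdc5 in liver by count (TMM-scaled CPM, left) and by deposited FPKM (right), linear axes from 0, points for libraries and bars for the mean ± SD (n = 5 each). By count the groups overlap (means 9.45 and 9.74 CPM), and by FPKM the treated libraries (3.16 to 4.93) lie above the vehicle libraries (1.97 to 3.15).

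The difference between the tissues was tested by subtracting the liver effect from the fat effect in 1 edgeR fit of all 16 libraries. None of the 10 genes was called, beside 0.949% of 14853 genes. An unadjusted p under 0.05 was reached by 3 of the 10, Sesn3, Rragd and Ddit4, beside 15.7% of all genes. For Sesn3 the difference was -1.16 on the log2 scale (SE 0.33, p 0.00264, adjusted p 0.0984), for Rragd 1.46 (SE 0.46, p 0.00562, adjusted p 0.130) and for Ddit4 -1.64 (SE 0.77, p 0.0488, adjusted p 0.314). DESeq2 called the first pair, Sesn3 at -1.14 (adjusted p 0.0473) and Rragd at 1.49 (adjusted p 0.0491), among 687 of 14853 genes. When halofuginone liver 1 was left out, edgeR called Ddit4 at -1.93 (adjusted p 0.0302), among 1053 of 14902 genes. For Sesn2 the difference was -0.55 with a 95% interval of -1.48 to 0.39, so the tissues were not shown to differ in its response. The fit takes libraries with the same number in liver and fat as independent, and it uses 1 estimate of spread per gene for both tissues.

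Without drug, the 10 genes ranked differently in the tissues by deposited FPKM, which the authors scaled library by library in a separate table for each tissue. In vehicle liver Deptor was highest at 17.3 FPKM ± 2.04, then Eif4ebp1 at 10.1 ± 1.43 and Mtor at 5.61 ± 0.470 (SD, n = 5). Sesn1 at 2.69 ± 0.401, Depdc5 at 2.49 ± 0.441, Tfeb at 2.49 ± 0.366, Sesn2 at 1.70 to 2.59 and Ddit4 at 2.09 ± 0.136 followed, and no neighbours in this run differed beyond the larger SD. Sesn3 at 1.82 ± 0.230 and Rragd at 0.554 ± 0.162 were lowest, each below its neighbour by more than either SD. In vehicle fat Eif4ebp1 was highest at 64.0 FPKM ± 23.9, then Sesn1 at 28.7 ± 2.54, Deptor at 22.9 ± 5.66 and Ddit4 at 19.1 ± 11.7 (SD, n = 3). Tfeb at 12.3 ± 2.76, Sesn2 at 10.9 ± 4.16, Mtor at 10.4 ± 3.06, Sesn3 at 6.86 ± 1.85, Depdc5 at 5.48 ± 0.221 and Rragd at 3.18 ± 1.33 followed. From Deptor down to Mtor, and between Sesn3 and Depdc5, neighbours in fat differed by less than the larger SD.

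By count, 8 of the 10 genes were called between the vehicle tissues in the same edgeR fit of all 16 libraries, treated libraries included. The TMM factors of that fit span both tissues, unlike those behind the CPM values. Beside the 8, 72.3% of 14853 genes were called, 40.9% higher in fat and 31.5% lower. Sesn1 was higher in fat by 2.11 on the log2 scale (SE 0.17), Ddit4 by 1.99 (SE 0.54), Eif4ebp1 by 1.47 (SE 0.22), Rragd by 1.33 (SE 0.32), Sesn2 by 1.12 (SE 0.31), Tfeb by 1.07 (SE 0.19) and Sesn3 by 0.75 (SE 0.23), with adjusted p-values from 1.9e-08 for Sesn1 to 0.00732 for Sesn3 in edgeR. Sesn3 was not called without fat vehicle 1 (0.55, adjusted p 0.0612). Deptor was lower in fat by TMM (-0.78, SE 0.18, adjusted p 0.000961) but higher with library size alone (0.40), a scaling that moved the median of all genes by 1.19. Mtor at -0.42 (adjusted p 0.0518, but -0.44 and 0.0442 with DESeq2 size factors and -0.58 and 0.0200 without fat vehicle 2) and Depdc5 at -0.11 (adjusted p 0.501) were not called, and both turned to the other side with library size alone, at 0.77 and 1.08.

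The genes around the 10 were described from lists, as counts called in edgeR and medians. Of 46 tested genes of the mTORC1 machinery in liver, 8 rose and 4 fell (12 of 46, beside 23.2% of all genes), with a median log2 fold change of 0.03. In GATOR2, the complex that sestrins bind, Mios, Seh1l and Sec13 rose (3 of 5 tested), by 0.55, 0.50 and 0.65 on the log2 scale. Seh1l and Sec13 also build the nuclear pore, and Sec13 coats transport vesicles. In GATOR1 and its anchor KICSTOR, Nprl3 rose by 0.47 and Kptn fell by 0.74. Mlst8, a subunit shared by both mTOR complexes, fell by 0.42, the Ragulator subunit Lamtor4 fell by 0.48, and Rraga rose by 0.52.

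Among other sensors, Lars, the leucyl-tRNA synthetase, rose by 0.67 in liver, and Sar1b, a leucine-binding GTPase of the secretory pathway, fell by 0.79. Rheb, the GTPase that activates the kinase, rose by 0.36, while none of 5 folliculin and MiT factor genes and none of 8 substrate and cap-binding genes was called (edgeR, 0 and 1 with an unadjusted p under 0.05). Without halofuginone liver 1, 20 of the 46 machinery genes were called, 11 as higher and 9 as lower, beside 42.8% of all genes. Of 4 mTORC2 subunits, Mapkap1 rose by 0.34 and the others were not called.

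In liver, 2 of 5 genes of leucine uptake rose, and genes of leucine breakdown changed in both directions. The transporter LAT1 needs the subunits Slc7a5 and Slc3a2, and they rose by 2.17 (SE 0.50, adjusted p 0.0153) and 1.06 (SE 0.21, adjusted p 0.00945) on the log2 scale in edgeR. Slc7a5 was 1.61 to 1.94 CPM in vehicle and 3.03 to 21.99 CPM under halofuginone, without overlap. Of 12 tested genes of leucine breakdown, 3 rose and 5 fell, beside 12.7% and 10.5% of all liver genes. Ppm1k, the phosphatase that activates the branched-chain ketoacid dehydrogenase, rose by 1.04, and Bckdk, the kinase that inactivates the same enzyme, rose by 0.59. Among those that fell were Bckdhb, a subunit of that dehydrogenase, by 0.71, and Ivd, Auh and Mccc2, enzymes of later steps, by 0.61, 0.56 and 0.42.

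Of 26 lysosome genes with CLEAR elements, which TFEB is known to bind, 6 fell in liver and none rose, with 22 of 26 log2 fold changes below 0 and a median of -0.18. Of all liver genes 10.5% were called as lower and 12.7% as higher, and 51.7% of log2 fold changes lay above 0. Counted in either direction, the share of the list that was called was near the 23.2% of all genes. The proton pump subunit Atp6v0d2 fell by 3.05, Gpnmb by 1.13, Psap by 0.61, Hexa by 0.47, Lamp1 by 0.40 and Atp6v1a by 0.40. Atp6v0d2 averaged 4.70 CPM in vehicle and 0.593 CPM under halofuginone, with treated libraries from 0.143 to 1.54 CPM. A count of 0 allows 0.0938 to 0.148 CPM in liver, so the size of this fall rests on low counts. Atp6v0d2 and Gpnmb are also known as macrophage genes. The 9 macrophage markers in liver summed to 346.4 to 456.4 CPM in vehicle and 332.7 to 573.6 CPM under halofuginone. None of them was called, and the highest sum was that of halofuginone liver 1. The median sums were 415.9 CPM in vehicle and 364.9 CPM under halofuginone. The part of macrophages in the lysosome genes was not tested. Leaving out halofuginone liver 1, 9 of the 26 fell and 2 rose, beside 21.6% and 21.2% of all genes. With library size alone, 3 of the 26 fell and 1 rose, beside 838 and 2789 of 12311 genes, and the calls of Lamp1, Hexa and Atp6v1a were lost at adjusted p-values of 0.133, 0.0618 and 0.0882.

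**Figure D5:**
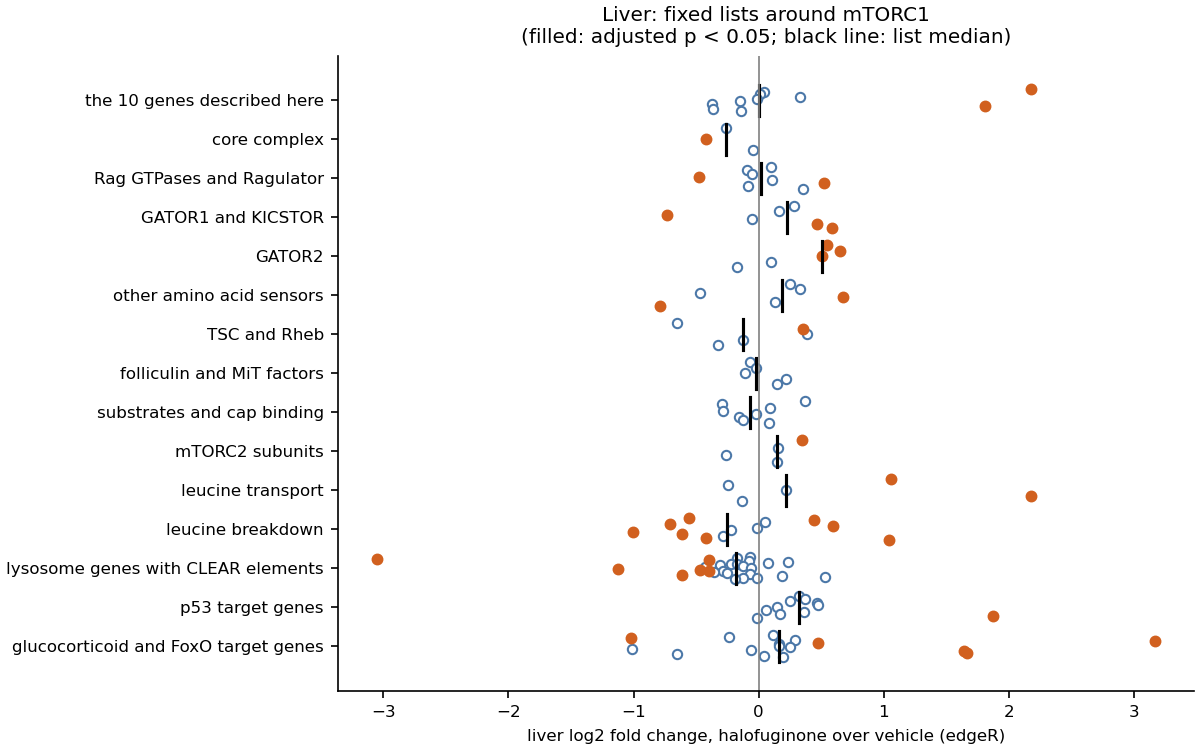
Liver log2 fold change of halofuginone over vehicle (edgeR) for every tested gene of the lists around mTORC1, 1 row per list, filled where the adjusted p is under 0.05, with a black line at the list median. The GATOR2 row has 3 filled points of 5 to the right of 0, and the lysosome row has 6 filled points, each to the left of 0.

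Ddit4 and Sesn2 are also known to respond to p53, and Ddit4 to glucocorticoids, so those targets were counted as well. Of 11 p53 target genes tested in liver, Trp53inp1 rose by 1.87 (SE 0.36, adjusted p 0.00865) and no other was called, with a median of 0.32. Cdkn1a stood at 0.47 (adjusted p 0.578) and Mdm2 at 0.06 (adjusted p 0.712). Of 16 glucocorticoid and FoxO target genes, Igfbp1 rose by 3.17, Tat by 1.66, Sgk1 by 1.64 and Irs2 by 0.47, and Fkbp5 fell by 1.02 (edgeR). Of the 8 glucocorticoid targets 2 were called as higher and 1 as lower. Beside the counts of these lists, 23.2% of all liver genes were called, 12.7% as higher and 10.5% as lower. The call of Irs2 was lost without halofuginone liver 1 (edgeR adjusted p 0.0640). In that fit 3 of the 11 p53 targets were called as higher, beside 21.2% of all genes.

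In fat no gene of any of these lists was called by edgeR. The lowest unadjusted p-values in the mTORC1 machinery were those of Seh1l (log2 fold change 0.63, adjusted p 0.210), Lars (0.52, adjusted p 0.262) and Grb10, an mTORC1 substrate that dampens insulin signalling (0.86, adjusted p 0.298), and these were the 3 of 47 with an unadjusted p under 0.05, which 13.4% of all fat genes had. In leucine handling 3 of 18 passed that mark, Slc7a5 at 1.74 (adjusted p 0.204), Ppm1k at 0.96 (adjusted p 0.303) and Bcat1 at -1.08 (adjusted p 0.325). Lysosome genes that did included Scpep1 at 0.77 and Sgsh at -0.42, and none of the 4 mTORC2 genes did. Among p53 targets Plk2 stood at -1.15, Gtse1 at -1.40 and Bbc3 at 0.91, 3 of the 4 genes of 12 with an unadjusted p under 0.05. Irs2 stood at 1.14 (adjusted p 0.179), the only such gene of 13 glucocorticoid and FoxO targets tested. DESeq2 called Seh1l, Slc7a5, Plk2, Gtse1 and Irs2 in fat, and no other gene of these lists.

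The liver genes whose log2 CPM followed Sesn2 most closely over the 10 livers, among 8810 genes averaging at least 5 CPM, were Xpa (Pearson r 0.994), Zbtb18 (0.993) and Tcea1 (0.990). Those nearest to Ddit4 were Tm9sf2 (0.983), Stap2 (0.980) and Tmed10 (0.980). Sesn2 and Ddit4 had an r of 0.877 with each other, while Sesn2 with Sesn1 gave -0.782 and with Sesn3 -0.806. These values describe 10 libraries that share 2 groups, library depth and the position of halofuginone liver 1.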

How the data were processed

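Poly(A)-selected RNA of liver and white adipose tissue was sequenced, and 16 libraries were analysed. The submitters' processing notes name fastp 0.18.0, Bowtie2 2.2.8, HISAT2, StringTie 1.3.1, RSEM and the build mm39, and the parameters are not given in the sources used here. The authors deposited, per the file headers, whole-number counts and FPKM per gene and library. The counts may be rounded estimates, since 1 to 31 genes per library paired a positive FPKM with a count of 0. Symbols were found for 22267 identifiers. Gene coordinates on mm39 were not used here. For the drug effect, the counts of each tissue alone went into edgeR 4.0.16 under R 4.3.3 (TMM, filterByExpr, glmQLFit, glmQLFTest, two-sided, Benjamini-Hochberg over all genes tested, called under 0.05). Both comparisons between the tissues used the same steps in 1 fit of all 16 libraries, treated libraries included. The scripts were tested on simulated data. A count of 0 allows 3 counts, 0.0938 to 0.176 CPM, counting error only. The members and lists were chosen with earlier results of these data known. Named were all 10 genes and, per list and tissue, the 5 largest called genes averaging 1 CPM or more in the higher group, or up to the 3 smallest unadjusted p-values under 0.05 where none was called. Mios, Seh1l, Nprl3, Mlst8, Lamtor4, Rraga, Rheb, Bckdk, Ivd, Auh, Mccc2, Atp6v1a, Cdkn1a and Mdm2 were added after their values were seen. Alternatives were DESeq2 1.42.0, other scalings and filters, limma 3.58.1 on the FPKM, a replicate block, 1 fit of all libraries and leaving out each library. List counts without halofuginone liver 1 or fat vehicle 3, with DESeq2 in fat and with other scalings in liver were chosen after seeing the data. A few genes of the lists are not reported here by name.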

Additional observations from a re-analysis of the deposited data

Results flagged for a closer look

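Vehicle liver 2 stood apart from the other vehicle livers for Tfeb, at 4.808 CPM against 6.195 CPM in the next library. The gap was 0.711 of the group's range, against Dixon's limit of 0.71 for 5 libraries. It was the only one of 20 groups of 5 libraries past the limit, and chance passes about 1 in 20.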

How the results depend on the processing

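Over the alternatives and left-out libraries, Sesn2 in liver kept its call (1.51 to 1.98), and Ddit4 kept it except with the replicate block. Of the 10 genes in liver, 4 were called by limma on log2(FPKM + 1), beside 28.7% of 9987 genes, and 4 with a pseudocount of 0.1. When a library was left out, 2 to 5 were called, most without halofuginone liver 1. The 11 alternatives that kept every liver library, the replicate block and both pseudocounts among them, called 1901 to 3627 genes in all. Genes called in liver ranged from 1275 (without halofuginone liver 3) to 5312 (without halofuginone liver 1), over 1.5 times apart from 2850 for vehicle 2, 4 and 5 and halofuginone 1, 3, 4 and 5. In fat, 1 gene was called without a filter, 723 of 14030 by DESeq2 and 13 by limma on log2(FPKM + 1). In 1 fit of all libraries 334 of 14853 were called, and 0 to 1 when a library was left out. Of the 10 genes in fat, 2 were called by DESeq2 and 1 in 1 fit of all libraries. For the difference between tissues, DESeq2 called 687 genes and 2 of the 10, and leaving out a library gave 34 to 1053 genes and 0 to 1 of the 10. The cause of these shifts was not tested.

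Signs turned in liver for Rragd (0.012) and Mtor (0.15) with library size alone, for Deptor with DESeq2 (-0.000039), and in limma for Tfeb (0.0065 and 0.0098) and Mtor (0.085 and 0.096). With a library left out, Deptor ranged from -0.12 to 0.079, Mtor from -0.075 to 0.052 and Depdc5 from -0.062 to 0.12 in liver, and the difference between tissues from -0.22 to 0.051 for Sesn1 and from -0.22 to 0.29 for Eif4ebp1. Library size alone turned that of Eif4ebp1 to -0.0397, and fat against liver in vehicle to 0.40 for Deptor, 1.08 for Depdc5 and 0.77 for Mtor. None of these genes was called for the drug effect under TMM.

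Deviations from the group mean were compared by Pearson r between libraries with the same replicate number. Within a tissue, r ran from -0.156 to 0.0566 in liver and from -0.570 to 0.111 in fat. Between liver and fat, r was 0.103, 0.128 and 0.226 in vehicle and -0.101, 0.0595 and -0.131 under halofuginone. Libraries with different numbers were not compared in this way, so a pairing was neither shown nor excluded. With the number as a block, 8 of the 10 genes were again called between the vehicle tissues, and 9257 genes in all. With the replicate block, 1 of the 10 genes was called in liver, Ddit4 stood at 1.88 (adjusted p 0.0538), and 2 genes were called for the difference between tissues. Rragd has no limma value in liver because its mean FPKM was under 1.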
